A study of Drosophila melanogaster with 62 samples.

Results

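Early nFne embryos of Drosophila melanogaster were compared with wild-type embryos of the same age at every gene of the authors' deposited table for that comparison. It holds 173 genes with a value and 1 gene without, CG1504, out of the 415 genes that appear in any of the 14 deposited comparison tables. Pooled male embryos collected at 14 to 16 h gave 3 nFne libraries and 3 wild-type libraries of stranded poly(A) RNA in the second experiment of the study. The labels call the genotype nFne-mutant and give no allele or exon. As the study is known, nFne stands for the form of the protein FNE that enters the nucleus, and the comparison asks what its loss does while ELAV is present. The same experiment held 3 nFne and 3 wild-type libraries at 18 to 22 h, called late here, and 3 elav-nFne libraries at each stage. Early elav-nFne embryos were set against the same 3 early wild-type libraries as nFne, whereas the late comparison shares no library with the early one. The first experiment, also on pooled male embryos, held 3 early libraries each of elav, fne and elav-fne mutants and of wild type. Its late libraries used here were 3 of elav, 4 of fne and 4 of wild type. A further 2 libraries came from wild-type adult heads.

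ELAV, FNE and RBP9 are related RNA-binding proteins of neurons. ELAV acts in the nucleus, where it promotes the use of distal cleavage and polyadenylation sites, so that neuronal transcripts carry longer 3′ untranslated regions (UTRs). A longer 3′ UTR can add binding sites for microRNAs and RNA-binding proteins, and it is a known feature of neuronal transcripts in flies and mammals. FNE is mainly cytoplasmic in neurons that have ELAV, and, as the study is known, its nuclear form depends on a small exon.

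The measure was the relative use of a 3′ segment of each gene, given by the authors as 1 log2 fold of nFne over wild type. A negative fold means that nFne embryos used the segment less than wild type. The adjusted p of a gene is the smallest over its segments, and 133 of the entries were a single segment, against 41 with several. All of these genes had been listed by the authors as lower in early elav embryos of the first experiment, so they are known to respond to loss of ELAV and are no sample of all genes. Only the authors' comparisons were used, with no value per library, so the spread between the 3 libraries of a group cannot be shown. The depth of each library is unknown, and as a guide the mean normalised count of the 173 genes had a median of 131 and ran from 3.34 to 1716. Whether replicates came from separate crosses is not stated in the labels, so the p-values may measure technical spread alone. Whole embryos were sequenced, so less use of a segment in the neurons that make it and fewer such neurons cannot be told apart, and neuronal markers could not be checked without expression values per library. The relative use of the fne 3′ UTR does not check the mutant label either.

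Few of these genes passed the threshold in early nFne embryos. Of 173 genes with a fold, 7 passed an adjusted p under 0.05 in the authors' deposited table, which is 4.05% of the genes. They were 5 lower (2.89%) and 2 higher (1.16%) in nFne than in wild type. The 5 that fell were chic, the gene of profilin, an actin-binding protein, the uncharacterised genes CG30411, CG7556 and CG32195, and fne itself. The 2 with a positive fold were Sxl and HIP-R, the latter at only 0.03. Sxl encodes the master regulator of sex determination Sex-lethal, and HIP-R is a relative of the gene for the Hsp70-interacting protein. CG1504 had a mean normalised count of 0 and no fold in the authors' deposited table.

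In all 7 of these genes the listed segments lay wholly in the gene's own annotated 3′ UTR and held the last segment of the gene. Most of the listed genes share this, with 169 having at least 90% of their bases in their own 3′ UTR and 130 holding the last segment, CG1504 included. Coordinates are those of dm6, as the authors give them. The chic segment (FBgn0000308) spanned 2L:5972115–5972899 on the minus strand, 785 bases that form segment 14 of 14. That of CG30411 (FBgn0050411) spanned 2R:23416746–23417238 on the plus strand, 493 bases. That of CG7556 (FBgn0030990) spanned X:19176109–19176791 on the minus strand, 683 bases. The CG32195 segment (FBgn0052195) was longer, 3175 bases at 3L:18115976–18119150 on the plus strand. The 4 listed segments of fne (FBgn0086675) together covered 3725 bases at X:12946693–12950417 on the plus strand. The 2 of Sxl (FBgn0264270) covered 2160 bases at X:7074550–7076709 on the minus strand, and the single HIP-R segment (FBgn0029676) covered 756 bases at X:3791722–3792477 on the plus strand. Of the 41 genes on the X chromosome 4 passed, against 3 of the 132 on autosomes, a split that was not tested.

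**Figure D1:**
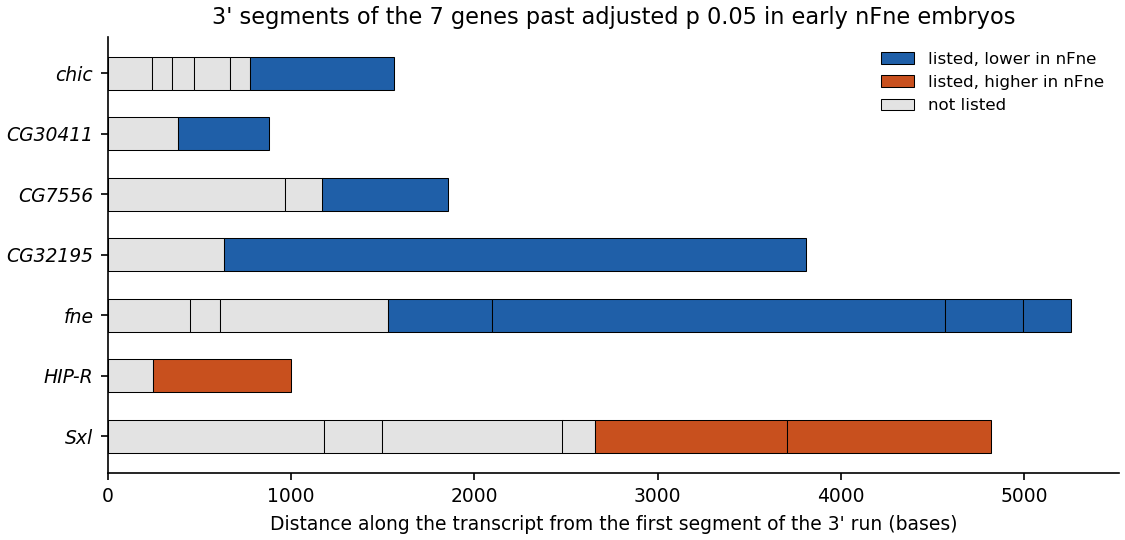
The 3′ segments of the 7 genes that passed an adjusted p under 0.05 in early nFne embryos, drawn to scale. The x axis is the distance along the transcript, in bases, from the first segment of the adjoining run at the 3′ end. Blue boxes are listed segments of genes with a negative fold, and orange boxes those of genes with a positive fold. Grey boxes are segments that were not listed. In each gene the listed segments end at the far 3′ end, and those of fne, 3725 bases in all, are the longest.

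Profilin's gene chic stood apart from all other genes. Its distal 3′ UTR segment fell by 3.15 on the log2 scale in nFne early embryos (adjusted p = 1.2e-21) in the authors' deposited table, at a mean normalised count of 460. The next lowest fold was -1.38. The authors' deposited tables gave chic -2.48 in nFne late (adjusted p = 5.5e-77), -4.22 in elav-nFne early and -4.03 in elav-nFne late. In the first experiment the authors' deposited tables gave the same gene -0.83 in elav early, -1.68 in elav late and -0.90 in elav-fne early. It was not in the fne list of either stage. The chic decrease in nFne was thus larger than in elav of the first experiment, in folds from separate fits whose difference was not tested.

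CG30411 and CG7556 followed, with folds of -1.38 (adjusted p = 0.0023) and -1.36 (adjusted p = 0.014) in nFne early in the authors' deposited table. Their mean normalised counts were 157 and 16.4, so CG7556 rests on few reads. Both genes belong to the small set that the authors listed in fne early embryos with ELAV intact. For CG30411 the authors' deposited tables gave -1.51 in nFne late (adjusted p = 1.0e-09), -1.53 in elav-nFne early, -1.75 in elav early and -1.72 in fne early. In elav-nFne late it had -0.95 in the authors' deposited table, the fold nearest 0 of the 6 given here. For CG7556 the authors' deposited tables gave -0.66 in nFne late (adjusted p = 0.547), -2.28 in elav-nFne early, -1.72 in elav early and -2.12 in fne early. CG30411 was low in adult heads, with 0.488 and 0.870 TPM (a level per transcript length and library total) in the 2 wild-type head libraries, where CG7556 had 10.6 and 10.4 TPM.

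CG32195 had a log2 fold of -0.61 in nFne early (adjusted p = 0.00012, at a mean normalised count of 99.8) and -1.02 in nFne late (adjusted p = 0.035) in the authors' deposited tables. It had -1.25 in elav-nFne early and -0.84 in elav early there.

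The fne gene itself moved little. Its 3′ UTR segments had a log2 fold of -0.37 in nFne early (adjusted p = 0.0075) and -0.23 in nFne late (adjusted p = 0.035) in the authors' deposited tables. The authors' deposited tables gave the same segments -5.10 in elav-nFne early, -4.13 in elav early and -8.47 in fne early. Both nFne folds were nearer 0 than these 3. Its paralog elav had -0.24 in nFne early without passing (adjusted p = 0.651), against -3.66 in elav-nFne early, in the authors' deposited tables. The other paralog, Rbp9, is not among these genes. In fne embryos fne is the mutated gene, and as the study is known it is also the mutated gene in nFne and elav-nFne embryos. The elav gene is mutated in elav and elav-nFne embryos. An effect of the mutation itself on the fold of the mutated gene cannot be told apart there.

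Sxl had a log2 fold of 0.75, weighted over its 2 distal segments, in nFne early embryos in the authors' deposited table (adjusted p = 0.034, mean normalised count 54.4). Which of the 2 segments passed is not given. It had the highest fold of the 173 genes and the largest p of the 7 that passed. Late nFne embryos gave -0.03 (adjusted p = 0.700), while elav-nFne early gave -3.94 and elav early -2.07, in the authors' deposited tables. The Sxl fold was thus above 0 in nFne early and below 0 in elav-nFne early and elav early.

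HIP-R passed with a fold near 0, at 0.03 in nFne early (adjusted p = 4.3e-19) and 0.02 in nFne late (adjusted p = 9.9e-13) in the authors' deposited tables. Its entry is a single segment. In elav-nFne early, against the same wild-type libraries, it had -0.25 and did not pass (adjusted p = 0.483, the authors' deposited table). A related gene, HIP, starts 6673 bases further along the X chromosome, and the 2 genes share 2 exon lengths, 122 and 647 bases. Sequences and shared reads were not compared, and the HIP-R value is uncertain. The listed segment of Tlk, the gene of Tousled-like kinase, ends 199 bases before HIP-R starts on the same strand, and Tlk had 0.26 in nFne early without passing (adjusted p = 0.853, the authors' deposited table).

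The genes nearest the threshold on its other side were ps (adjusted p = 0.064, log2 fold -0.34), an RNA-binding splicing factor gene, and Ggamma1 (adjusted p = 0.073, -0.07), a G protein subunit gene, in the authors' deposited table. After them came the latrophilin gene Cirl (0.112, -0.55), the homeodomain-interacting kinase gene Hipk (0.122, -0.39) and the lipophorin gene apolpp (0.133, -0.75), each with its adjusted p and log2 fold in nFne early from the authors' deposited table. All 5 of these folds were negative. Far more genes lay well away from the threshold, with 145 of 173 at an adjusted p above 0.5 and 43 above 0.9.

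Folds of the remaining genes were small and mostly negative. Of the 173 folds, 135 were below 0 and 38 above 0 in the authors' deposited table, and the median was -0.15 with quartiles of -0.32 and -0.04. Of 46 genes within 0.1 of 0, 31 were negative, and of 58 genes between 0.1 and 0.25 in size, 43 were. Of 46 genes between 0.25 and 0.5 in size, 42 were negative, and of 19 between 0.5 and 1, 15 were. All 4 genes of size 1 or more were negative. Genes of 1 comparison share their 6 libraries and are no replicates, so no p is given for this lean.

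The 2 lowest folds that did not pass came from thinly covered segments. The translational regulator gene gw (GW182, a protein of microRNA silencing) had -1.11 at a mean normalised count of 7.56 (adjusted p = 0.564) in the authors' deposited table. The axon guidance gene comm (Commissureless, which controls crossing of the midline) had -0.98 at a count of 15.3 (adjusted p = 0.632) in the authors' deposited table. Next were apolpp (-0.75), the muscle transcription factor gene Mef2 (-0.71), the kinase gene nmo (Nemo, -0.69), corn (-0.69) and the semaphorin gene Sema1a (-0.66), none of which passed in the authors' deposited table. At the other end lay Tm1 (tropomyosin, 0.56), numb (the cell fate determinant Numb, 0.53), CG11030 (0.52), DIP1 (0.41) and the potassium channel subunit gene Hk (0.30), none past the threshold in the authors' deposited table. The next highest were Spn (spinophilin, 0.27), Tlk (0.26), 14-3-3zeta (0.23) and brat (0.23). Of the 23 genes with a fold of at least 0.5 in size, 18 did not pass, and 15 of the 23 had a mean count under 100, as 74 of all 173 had. Sorted by mean count, the lowest 58 genes (counts 3.34 to 86.2) included 12 folds of that size, the middle 57 genes included 7 and the highest 58 genes (counts 223 to 1716) included 4.

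**Figure D2:**
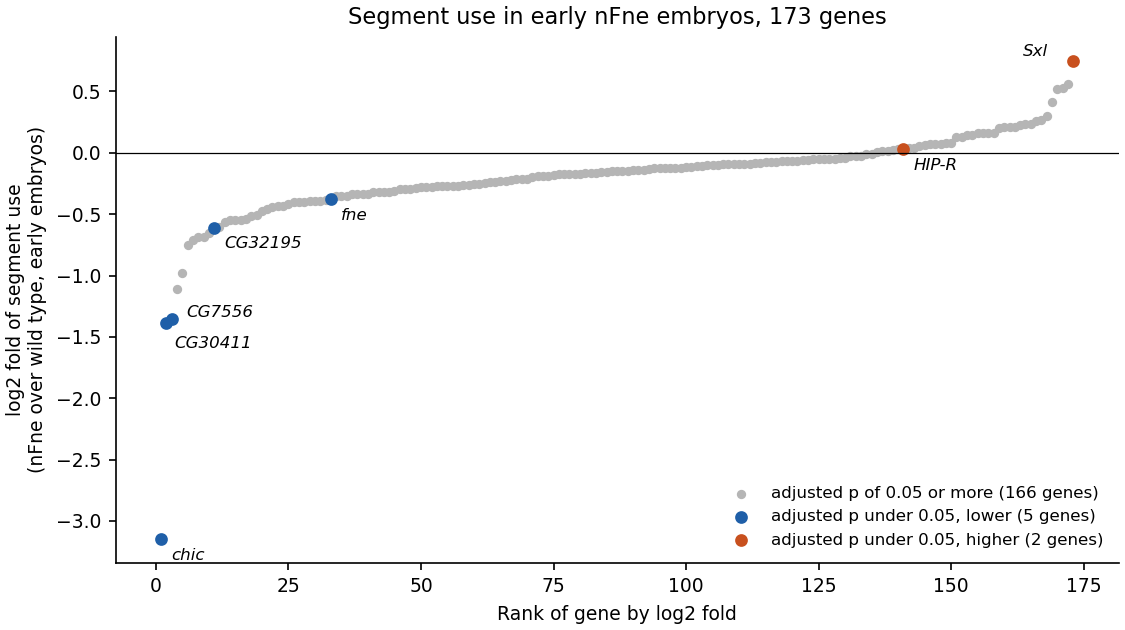
Log2 folds of segment use, nFne over wild type, in early embryos (y axis), for the 173 genes ranked from lowest to highest (x axis, rank). Each point is a gene, blue where it passed an adjusted p under 0.05 with a negative fold, orange where it passed with a positive fold, and grey where it did not pass. The gene chic lies alone at -3.15, and HIP-R passed at a fold of 0.03 in the middle of genes that did not.

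Folds by known function were described for 18 gene lists, which held 76 of the 173 genes. RNA-binding and RNA regulator genes were the largest group, with 18 genes. Of them fne fell, Sxl rose and 16 did not pass. Of the 18 folds 14 were negative, against 135 of all 173 folds, with a median of -0.16 against -0.15 over all 173 genes. The lowest fold of this group was that of Imp (-0.43, adjusted p = 0.729, the authors' deposited table), which encodes an mRNA-binding protein of neural stem cells and growing axons. The 4 translational repressor genes among them had a median of 0.08, with orb2 at -0.31 and brat at 0.23, neither past the threshold in the authors' deposited table.

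Transcription factor and chromatin genes had a median of -0.29 over 12 genes, 11 of them negative, and none passed. They ran from Mef2 (-0.71, adjusted p = 0.367) to jim (0.16, adjusted p = 0.753) in the authors' deposited table. Axon guidance and adhesion genes had a median of -0.27 over 9 genes, 7 of them negative, from Sema1a (-0.66, adjusted p = 0.616) to Nrg, the gene of neuroglian (0.15, adjusted p = 0.960), in the authors' deposited table. None of the 9 passed. HIP-R (0.03, past the threshold) was taken off the synaptic list after its value was seen. The remaining 6 synaptic genes were all negative, with a median of -0.15, and none passed. Most folds of the whole table were negative too, 135 of 173. They ran from Cirl to CASK, a scaffold protein gene (-0.05, adjusted p = 0.864, the authors' deposited table), whose listed segments overlap a noncoding gene on the same strand.

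Among 5 actin genes and regulators, chic fell and the other 4 did not pass, with Tm1 highest at 0.56 (adjusted p = 0.167, the authors' deposited table). The median of the 5 was -0.10. All 5 calcium and calmodulin genes were negative without passing, from Plc21C, a phospholipase C gene (-0.32), to Cam, the calmodulin gene (-0.03), in the authors' deposited table. The 4 genes of cAMP signalling and the 4 of microtubules and axonal transport had medians of -0.00 and -0.06, with 2 negative folds in each, and none passed. Of cAMP genes, Epac had -0.19 and the phosphodiesterase gene dnc (dunce) 0.23 in the authors' deposited table. The metabolic enzyme genes ATPCL (-0.32), Ald (-0.30) and Ldh (-0.23) did not pass in the authors' deposited table, and ATPCL had the lowest mean count with a fold, 3.34. The potassium channel genes Shal (0.08) and slo (0.16) did not pass either in the authors' deposited table.

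**Figure D3:**
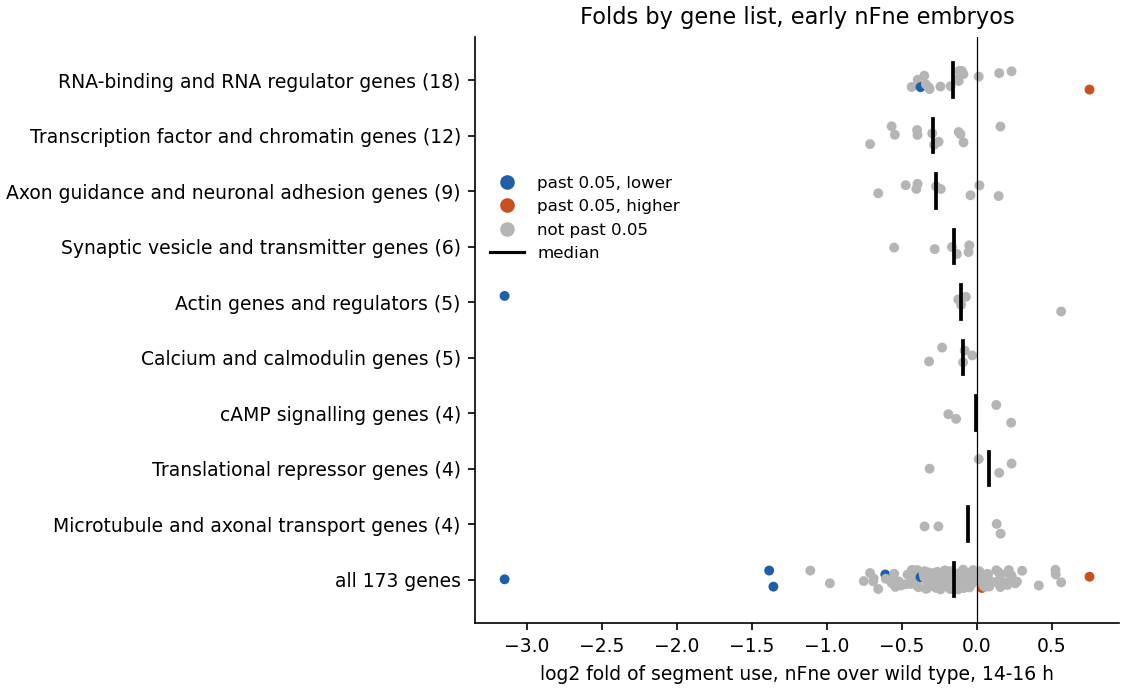
Log2 folds of segment use in early embryos, nFne over wild type (x axis), for each gene list with at least 4 genes, above all 173 genes (bottom row). Points are genes, coloured by whether they passed an adjusted p under 0.05 and in which direction, and black bars are medians. The medians run from -0.29 for transcription factor and chromatin genes to 0.08 for translational repressor genes, against -0.15 for all genes, and points are spread vertically only to separate them.

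Folds were also set beside features of the segments, with no test. By the authors' type code, which the sources used here do not define, the median fold was -0.16 for 148 genes coded TE, -0.11 for 18 coded LE and -0.14 for 7 coded AL. The median was -0.09 on the X chromosome, where 27 of 41 folds were negative, and -0.17 on autosomes, where 108 of 132 were. All 7 genes that passed were among the 129 whose entry holds the last segment, and none among the other 44. Sorted by listed width, the median fold was -0.18 for the narrowest 58 genes, -0.17 for the middle 57 and -0.11 for the widest 58, and Spearman's rho between width and fold was 0.12 across the 173 genes. Nearly all of the genes were detected in adult heads, where 170 of 173 genes had over 1 TPM in both wild-type libraries (98.3%), against 9009 of all 17753 listed genes (50.7%).

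Genes that the authors also listed in fne mutants had a lower median than the others. The authors listed 17 of these genes in fne early embryos, and the 17 had a median nFne early fold of -0.35, with 15 of 17 negative and 3 that fell (CG30411, CG7556 and fne). Of the 3, fne is itself the gene mutated in fne embryos and, as the study is known, in nFne embryos. The other 156 genes had a median of -0.14, with 2 that passed as lower and 2 that passed as higher. The difference between the sets was not tested. Within the 17 genes, the authors' deposited tables for nFne early and fne early gave -0.55 and -1.68 at Cirl, -0.46 and -2.09 at the proton pump subunit gene Vha26, -0.23 and -2.06 at Ldh, and 0.23 and -1.42 at 14-3-3zeta. All 4 nFne folds were nearer 0 than the fne fold of the same gene and did not pass. Since the 17 genes were chosen by their listing in fne embryos, larger fne folds are partly set by that choice. The contrast is thus no measure of a weaker effect in nFne. Sorting the 173 genes instead by their fold in elav early gave like medians, at -0.17 for the 58 genes with the largest elav decreases, -0.16 for the middle 57 and -0.13 for the last 58.

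More genes passed late than early. Late nFne embryos had 26 genes past the threshold in the authors' deposited table (15.0%), 25 lower (14.5%) and 1 higher (0.578%) than late wild type. The genes that passed at both stages were chic, CG30411, CG32195, fne and HIP-R, each with the same sign, which is 71.4% of the 7 early and 19.2% of the 26 late. The 2 genes that passed early alone were CG7556 and Sxl, and whether their folds differed between stages was not tested. The 21 genes that passed late alone had a median early fold of -0.11, with 15 negative, and a median late fold of -0.76. None of them had an early adjusted p under 0.122.

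Among the late genes, those with the lowest folds have varied roles. The ribosomal protein gene RpS4 had -0.33 early (adjusted p = 0.552) and -1.41 late (adjusted p = 0.0029) in the authors' deposited tables. Vha26 had -0.46 early (adjusted p = 0.521) and -1.20 late (adjusted p = 0.016) in the authors' deposited tables. The aldolase gene Ald had -0.30 early (adjusted p = 0.805) and -1.05 late (adjusted p = 0.021) in the authors' deposited tables. The transcriptional repressor gene cic (Capicua) had -0.55 early and -1.18 late (adjusted p = 0.041), and the microtubule-associated protein gene Map205 had -0.26 early and -1.09 late (adjusted p = 0.0085) in the authors' deposited tables. The genes numb and CG11030 changed sign, with 0.53 early and -1.15 late (adjusted p = 0.013) for numb and 0.52 early and -0.91 late (adjusted p = 0.016) for CG11030 in the authors' deposited tables. Neither early value passed, and both rest on few reads, at mean counts of 15.8 and 37.9.

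Across the 173 genes, 132 folds were negative at both stages, 33 were positive early and negative late, 3 were negative early and positive late, and 5 were positive at both. The late fold was below the early one at 134 genes. Pearson's r between the early and late folds was 0.39 over the genes and 0.18 without chic, and Spearman's rho was 0.15 and 0.14. The points of these correlations are genes of the same libraries and no replicates.

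**Figure D4:**
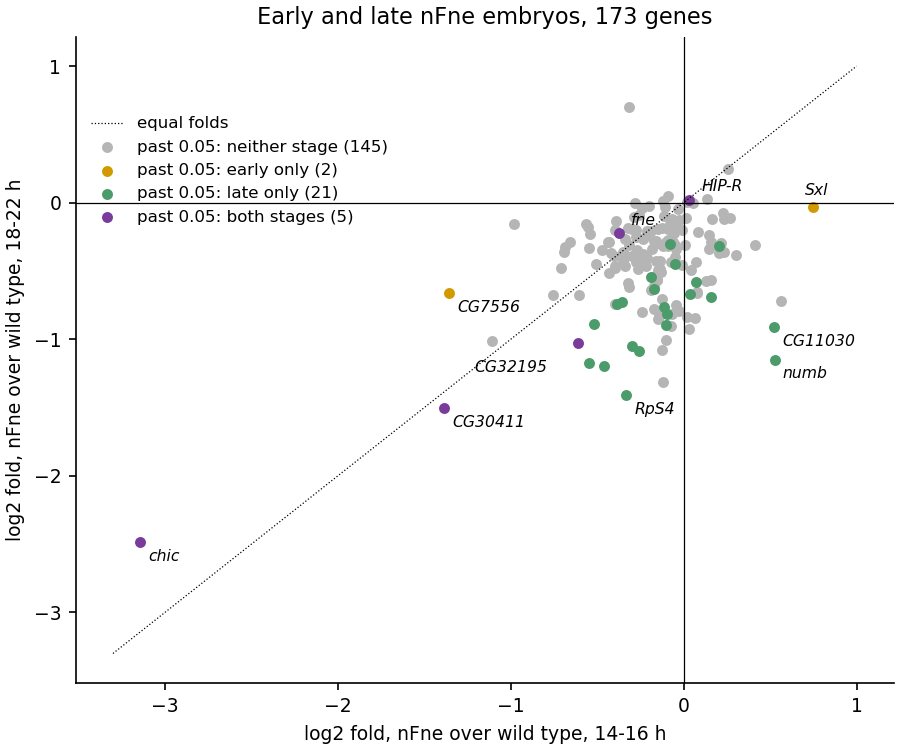
Log2 folds of segment use, nFne over wild type, at 14 to 16 h (x axis) and 18 to 22 h (y axis) for 173 genes, with a dotted line where both folds are equal. Colours mark genes past an adjusted p under 0.05 at neither stage (145), early alone (2), late alone (21) or both (5). The genes chic and CG30411 lie far below 0 at both stages, and Sxl is high early alone. Early folds of the late-only genes run from -0.55 to 0.53, with a median of -0.11.

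Early elav-nFne embryos, compared with the same wild-type libraries, had 142 genes past the threshold in the authors' deposited table (82.1%), all lower, and late elav-nFne embryos 156 of 172 (90.7%). Since the comparisons share their wild-type libraries, values are given side by side and the differences were not tested. The nFne fold was the nearer to 0 of the pair at 170 of 173 genes. All of these genes had been listed as lower in early elav embryos. Decreases in elav-nFne, and this contrast with nFne, are thus partly set by that choice of genes. Of the 46 genes within 0.1 of 0 in nFne, 36 had -1 or lower in elav-nFne. The homeobox genes hth and ct had nFne early folds of -0.11 and -0.09, and elav-nFne early folds of -6.89 and -5.47, in the authors' deposited tables. Among RNA regulators, pum (Pumilio, a translational repressor) had 0.15 in nFne and -4.94 in elav-nFne, bol (Boule) -0.10 and -4.34, and Imp -0.43 and -4.17 in the authors' deposited tables. For Tlk these were 0.26 and -4.99, for CG34401 -0.33 and -4.62, and for comm -0.98 and -5.51, in the authors' deposited tables. The same direction of difference was seen for chic (-3.15 and -4.22) and CG30411 (-1.38 and -1.53), with far smaller gaps, in the authors' deposited tables.

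Of the 38 genes with a positive nFne fold, 28 were lower past the threshold in elav-nFne early, against 142 of all 173 genes (82.1%). The median elav-nFne early fold was -1.78 over the 38, close to the -1.84 of all 173 genes. Both comparisons share their wild-type libraries, so a choice by the nFne fold also bears on the elav-nFne folds.

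**Figure D5:**
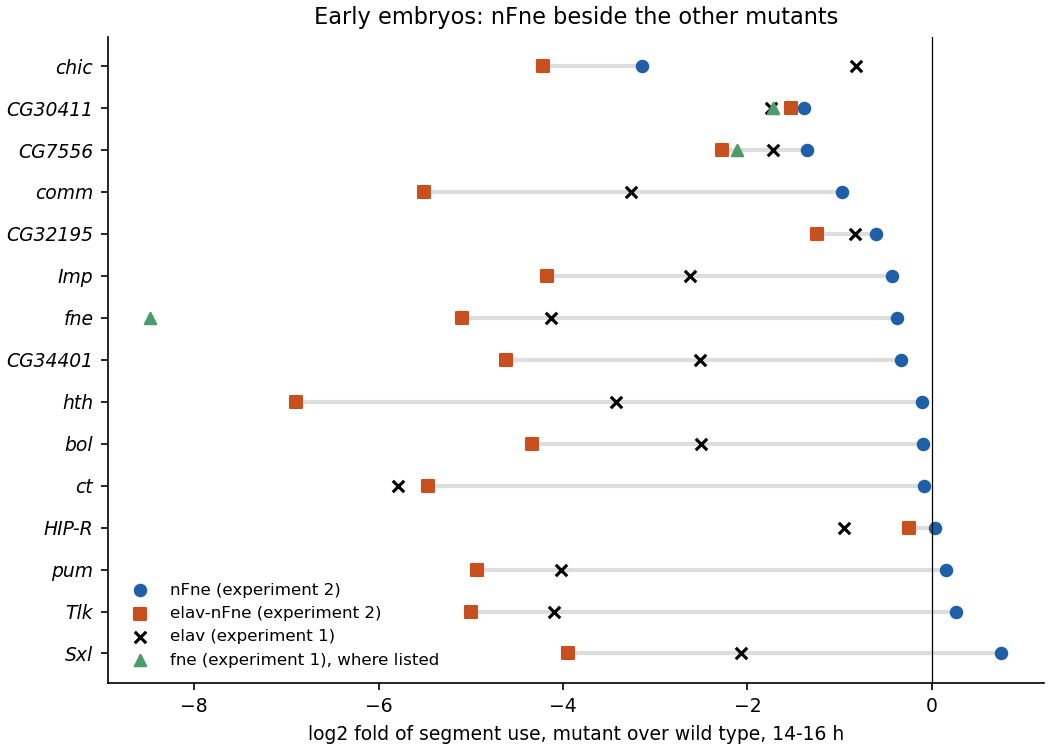
Log2 folds of segment use in early embryos, mutant over wild type (x axis), for the 7 genes that passed in nFne and the 10 with the lowest elav-nFne folds, which share chic and fne. Circles are nFne and squares elav-nFne of the second experiment, set against the same wild-type libraries and joined by grey lines. Crosses are elav and triangles fne of the first experiment; triangles are shown only where the authors listed the gene. Circles of hth, ct, pum, Tlk and bol lie within 0.3 of 0 while their squares lie below -4, whereas for chic and CG30411 both lie well below 0.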

How the data were processed

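Embryo values are the authors' own comparisons: a log2 fold weighted over a gene's segments and the smallest adjusted p-value over them, per the file headers, with a mean normalised count, a signal averaged over mutant and wild-type libraries, as deposited. For the weighting, the tool, its version and the depth per library, the sources used here give nothing. A further deposited score is that count per 1000 bases for single segments, as read from the values. The annotation of segments was made with rtracklayer 1.40.5 on dm6, per the file headers and the submitters' processing notes. Adult heads have the authors' deposited TPM values. Tables were fitted separately. No fit of any kind was made here, only counts, medians and ranks of deposited values in Python 3.11.15 with numpy 2.4.6 and pandas 2.3.3, with plots in matplotlib 3.10.9. The tallies were tested on simulated data. Segments were annotated with BDGP6.54 from Ensembl release 115, the same assembly. All 174 gene IDs were found there, and symbols are the deposited ones, of which 164 are current. Genes were named by rule: those past the threshold, the 10 lowest and 10 highest folds, the next 5 adjusted p-values, the 10 lowest in elav-nFne early, those past the threshold among the 10 lowest late, the ELAV family, and each list's extremes. CG1504, CG31688 and HIP were named after their values were seen. The members and lists were chosen with earlier results of these data known, and HIP-R was taken off the synaptic list after its value was seen. ELAV iCLIP was not analysed here.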

Additional observations from a re-analysis of the deposited data

How the results depend on the processing

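With the X chromosome left out, 3 genes passed as lower and 0 as higher, against 5 and 2 over all chromosomes, since 4 of the 7 lie on the X. Genes that passed as higher numbered 1 at an adjusted p under 0.01, 1 with a log2 fold of at least 0.5 in size and 1 among single segments. These were not the same gene. HIP-R was the gene left under 0.01 and among single segments, and Sxl the gene left with that fold. Genes that passed at both stages numbered 3 under 0.01 (chic, CG30411 and HIP-R) and 3 with that fold (chic, CG30411 and CG32195), against 5. The median log2 fold was -0.24 among genes at least 0.1 from 0, against -0.15, because genes near 0 are left out by construction. The other 13 alternatives stayed within 1.5 times the count or within the spread of folds, among them 4 lower genes under 0.01 and 7 under 0.1. All alternatives were fixed with earlier results of these data known. No paired analysis was possible because only comparisons, with no value per library, were used. Leaving out each library was not run for the same reason. Low counts limit folds at genes such as gw, comm and ATPCL.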

Other observations

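The mean normalised count of the chic segment differed between the experiments more than that of nearly all other genes. At the 132 single-segment genes with a count in both, the value that the authors' deposited tables of the first experiment give for elav early was a median of 1.48 times the count per 1000 bases in that for nFne early. At chic the ratio was 4.45, with 586 in nFne early and 2605 in elav early, both from the authors' deposited tables. A higher ratio was found at 1 of the 132 genes, CG31688, with 4.92, and the lowest ratio was 0.312. That the value of the first experiment is per 1000 bases is read from the numbers, since the ratio did not follow segment width (Spearman's rho 0.08 across genes), and no header states it. These values average mutant and wild-type libraries, so the decreases of chic in the mutants, -3.15 in nFne early and -0.83 in elav early, enter its ratio. The cause was not tested.

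CG1504 had a mean normalised count of 0 in all 4 authors' deposited tables of the second experiment, wild-type libraries included. In the first experiment it had, in the table the authors deposited for elav early, 24.4 and a log2 fold of -2.12. The 2 wild-type head libraries had 1.11 and 1.23 TPM.

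The 17 genes also listed in fne early embryos had narrower segments than the rest, with a median listed width of 1015 bases against 1693 for the other 156 genes with a fold.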
